A study of Mus musculus with 8 samples.

Results

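The keratin genes are the genes named Krt followed by a number and at most 1 letter in the authors' deposited comparison, and 54 of the 55536 genes with an identifier met that rule. Keratin-associated proteins and the pseudogene Krt8-ps do not meet it, while Krt74, annotated as a transcribed unitary pseudogene, does. The members were split into 6 simple epithelial keratins (Krt7, Krt8, Krt18, Krt19, Krt20 and Krt23) and 48 others. Of the 54, 35 had no count in any sample, 19 had at least 1 count, and 10 passed the filter on low counts and were tested (6 simple epithelial and 4 others). Liver RNA came from 2-month-old lean wild-type C57BL/6 mice, with 4 samples after an adenovirus with a short hairpin RNA against Eif4ebp3 (shEif4ebp3, knockdown) and 4 samples after one against the bacterial gene lacZ (shLacZ, control). The labels number the samples of a group as replicates and do not say whether each came from its own mouse. The mice of both groups received 0.1 OD of virus, stayed on free feeding, and were fasted overnight before their livers were taken 1 week after injection, so the controls share the virus and the fast, and no group without virus was analysed here.

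Keratins form the intermediate filaments of epithelial cells. A filament is built from pairs of 1 acidic (type I) and 1 basic (type II) keratin, so a cell normally makes both partners. Hepatocytes are known to use Krt8 (type II) and Krt18 (type I), bile duct cells add Krt7 (type II) and Krt19 (type I), and the remaining keratins belong mainly to stratified epithelia, such as the epidermis, and to hair.

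The samples held 24189202 to 32073994 counts assigned to genes with an identifier. The targeted gene Eif4ebp3, a translation repressor, stood at 9.62, 13.9, 37.2 and 19.5 CPM (counts scaled to a common library size) in knockdown replicates 1 to 4, against 289, 215, 204 and 49.3 CPM in control replicates 1 to 4. It was lower in each knockdown sample than in each control, and control replicate 4 was the control with the least. Markers of hepatocytes, the main liver cell, were present in every sample, with summed levels of 76026 to 98106 CPM in the knockdown samples and 100040 to 126540 CPM in the controls. These sums depend on the scaling between samples. Changes are relative to the median gene, because normalisation factors were 1.15 to 1.26 in the knockdown samples against 0.776 to 0.890 in the controls, and scaling by total counts alone moved the median log2 fold change of all genes tested to 0.563.

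The keratins most clearly changed were 4 that were more abundant after knockdown, namely the hepatocyte pair Krt8 and Krt18, the intestinal and urothelial keratin Krt20, and Krt5, a keratin of basal epidermal cells. Krt7 also passed the test, but with overlapping groups. Krt10, Krt19, Krt23, Krt80 and Krt222 did not pass. Thus 4 of the 6 simple epithelial keratins and 1 of the 4 other keratins tested rose (edgeR quasi-likelihood test with Benjamini-Hochberg adjustment over all genes tested, adjusted p under 0.05), and none of the 10 fell. In the same comparison 57.2% of all 15375 genes tested differed, 29.5% being higher and 27.8% lower in the knockdown samples, so a call alone was common in these data. The median log2 fold change was 1.09 for the simple epithelial members tested, 0.27 for the others tested and 0.00 for all genes tested. Krt5, Krt7 and Krt20 reached the filter's cutoff in no control and passed only through the knockdown samples, as did 2.56% of all genes tested, so these counts and medians describe the 10 genes tested and not the family. Under total-count scaling all 10 were called higher, and with a filter at a mean of 1 CPM 5 of the 10 were tested and 3 were called.

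**Figure D1:**
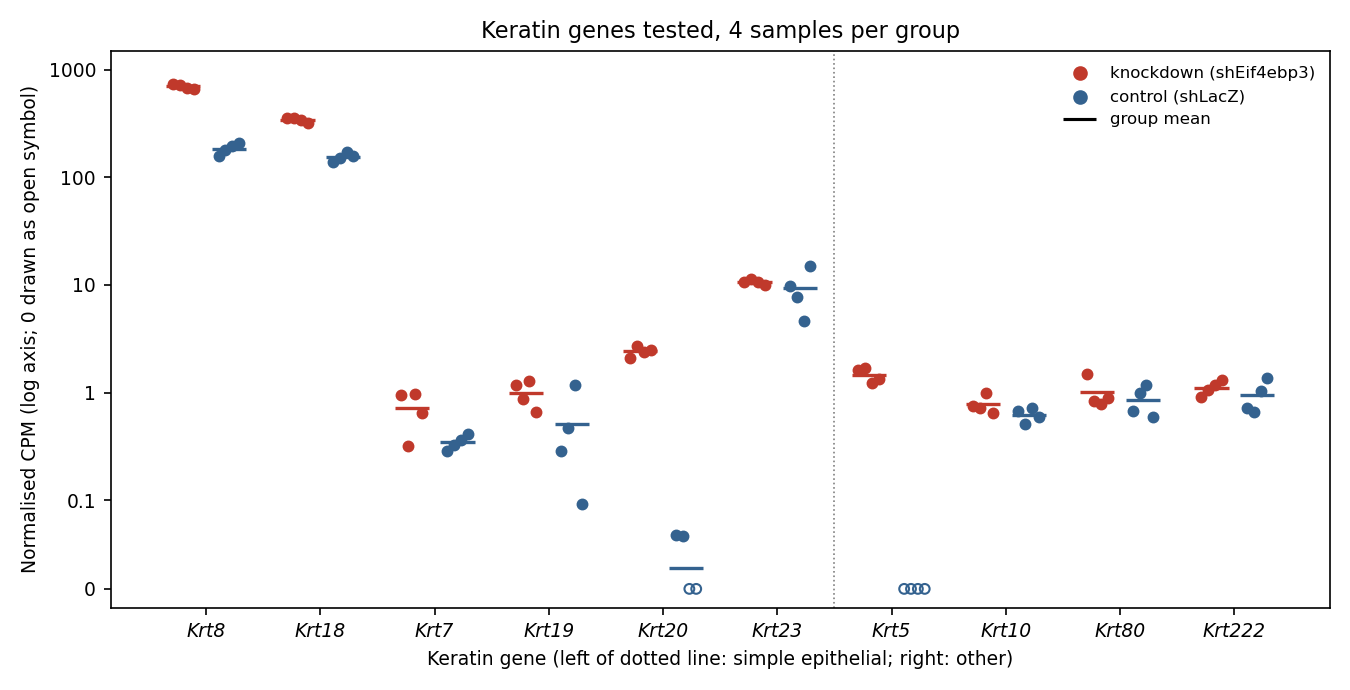
Normalised CPM on a log axis for each of the 10 keratins tested, with 1 point per sample, knockdown left of control, lines at the group means and samples with 0 counts as open symbols. Krt8, Krt18, Krt20 and Krt5 show no overlap between groups, with Krt8 at 669 to 742 CPM in knockdown samples against 157 to 209 CPM in controls, while the points of the other 6 genes overlap.

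Krt8, the type II keratin of hepatocytes, held 742, 715, 670 and 669 CPM in knockdown replicates 1 to 4, against 157, 179, 195 and 209 CPM in control replicates 1 to 4. The lowest knockdown sample lay more than 3-fold above the highest control. The means were 699 ± 36 CPM in knockdown and 185 ± 22.5 CPM in control samples (SD, n = 4 each), a log2 fold change of 1.92 ± 0.10 (SE) with an adjusted p of 4.07e-07 from edgeR. Krt18, its type I partner, held 355, 358, 344 and 319 CPM in the knockdown samples, against 139, 152, 173 and 158 CPM in the controls. Again the groups did not overlap, as was true in this direction of 27.4% of all genes tested. Krt18 rose by 1.14 ± 0.08 on the log2 scale, from edgeR with an adjusted p of 1.88e-06, and averaged 344 ± 17.9 CPM in knockdown and 156 ± 13.8 CPM in control samples (SD, n = 4 each). In the authors' deposited table Krt8 stands at a log2 fold change of 1.91 and Krt18 at 1.14.

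The partners did not rise by the same factor. Divided by the transcript length that the authors list (1958 bases for Krt8 and 1437 bases for Krt18), Krt8 averaged 357 ± 18.4 CPM per kilobase in knockdown and 94.5 ± 11.5 in control samples, and Krt18 averaged 239 ± 12.5 in knockdown and 108 ± 9.57 in control samples (SD, n = 4 each). The ratio of Krt8 to Krt18 per kilobase was 1.53, 1.47, 1.43 and 1.54 in knockdown replicates 1 to 4, against 0.824, 0.862, 0.830 and 0.972 in control replicates 1 to 4. Krt8 was therefore the more abundant partner in each knockdown sample and Krt18 in each control sample, a ratio that does not depend on the scaling between samples but does depend on the lengths used. Without division by length, counts of Krt8 exceeded those of Krt18 in all 8 samples, by a ratio of 2.03 ± 0.0726 in knockdown and 1.19 ± 0.0932 in control samples (SD, n = 4 each). Summed over all members, type II over type I keratins per kilobase gave 1.44 ± 0.0526 in knockdown and 0.822 ± 0.0497 in control samples (SD, n = 4 each). These ratios were computed over the members themselves and were not tested. The exons of Krt8 overlap those of Gm36026, a long non-coding gene on the other strand, so reads of the 2 cannot be told apart if strand was not used in counting, while no annotated exon of another gene overlaps Krt18.

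**Figure D2:**
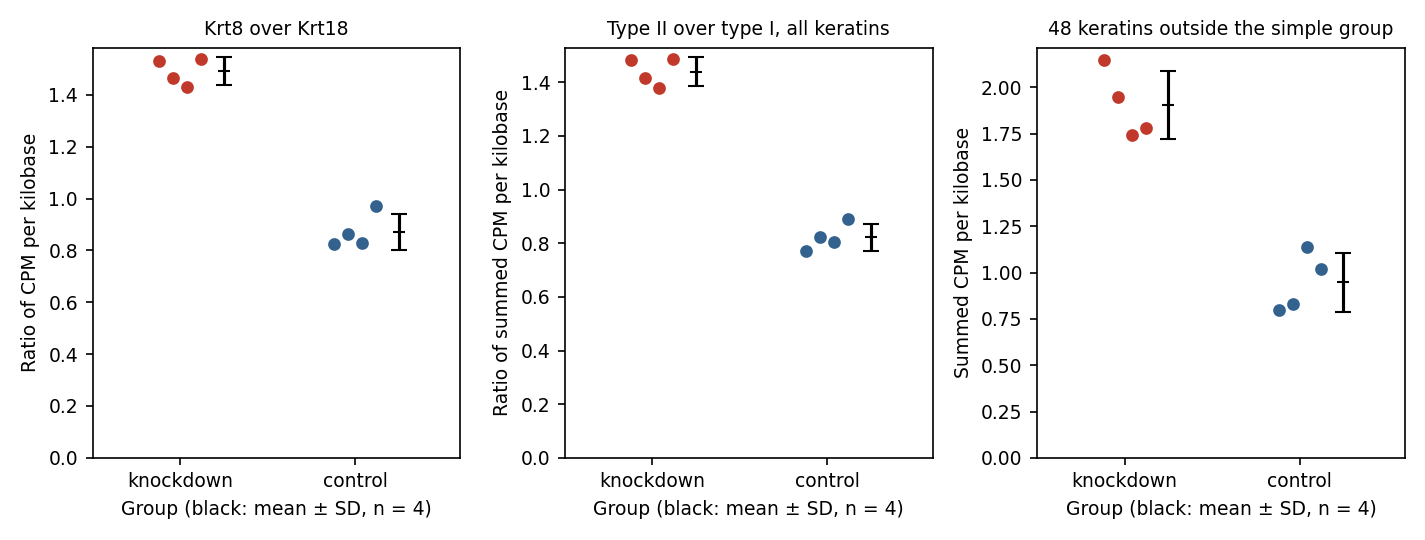
Ratio of Krt8 to Krt18, ratio of all type II to all type I keratins, and the summed level of the 48 keratins outside the simple epithelial group, each per kilobase, with 1 point per sample and the mean ± SD in black. Krt8 over Krt18 lies at 1.43 to 1.54 in knockdown samples and 0.824 to 0.972 in controls, and the summed level of the 48 others at 1.74 to 2.15 against 0.797 to 1.14 CPM per kilobase.

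Krt8 (chromosome 15, 101996698 to 102004482, minus strand, mm10) and Krt18 (102028180 to 102032027, plus strand) lie next to each other with 23698 bases between them, at 1 end of the type II cluster. Their promoter windows are shown because the pair moved together. Each window is the 250 bases before and 50 bases after the RefSeq gene start (GRCm38.p6), at chr15:102004293-102004592 on the minus strand for Krt8 and chr15:102027966-102028265 on the plus strand for Krt18. Capitals mark matches, on either strand, to any of 5 motifs. The AP-1 motif searched was TGANTCA. The core of the NRF2 element was TGACNNNGC. The TEAD motif was GGAATG. The TATA box was TATAAA. The Sp1/KLF motif was GGGCGG. Some TGANTCA sites can also match TGACNNNGC.
Krt8: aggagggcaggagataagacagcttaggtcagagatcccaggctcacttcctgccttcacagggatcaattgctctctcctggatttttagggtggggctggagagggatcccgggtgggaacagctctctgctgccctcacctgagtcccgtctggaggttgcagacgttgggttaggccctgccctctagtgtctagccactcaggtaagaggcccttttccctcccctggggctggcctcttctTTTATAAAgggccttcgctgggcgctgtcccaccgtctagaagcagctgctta
Krt18: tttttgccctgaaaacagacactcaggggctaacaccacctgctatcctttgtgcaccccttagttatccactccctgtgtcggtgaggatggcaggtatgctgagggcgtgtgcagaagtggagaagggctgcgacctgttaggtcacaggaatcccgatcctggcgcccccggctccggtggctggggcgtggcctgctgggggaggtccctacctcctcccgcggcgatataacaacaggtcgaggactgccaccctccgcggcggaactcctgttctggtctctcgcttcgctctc
The Krt8 window held overlapping TATAAA matches on both strands, which begin 1 base and 3 bases before the RefSeq start. The gene coordinates given above, from GENCODE, place the Krt8 start at 102004482, upstream of the RefSeq start. By those coordinates these matches lie inside the gene. The Krt18 window held none of the 5 motifs. TATAAA occurred in 19 of the 37 keratin windows available and in 13.6% of all 32851 promoter windows of the same length. GC content was 58% in the Krt8 window and 61.3% in the Krt18 window, against a median of 52.7% over all windows. A match is a description of the letters and not a binding site.

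Among genes that are no keratins, the nearest one tested to Krt18 was Eif4b, a translation initiation factor gene 41746 bases away on chromosome 15. Eif4b moved the other way, with 231 CPM on average in knockdown and 358 CPM in control samples (log2 fold change -0.63 ± 0.08, SE; adjusted p = 6.72e-05, edgeR). Eif1, the nearest tested gene beyond the far end of the type I cluster on chromosome 11, also fell by 0.77 ± 0.10 on the log2 scale (adjusted p = 6.54e-05, edgeR), and Smarce1 at its near end had a log2 fold change of -0.05 ± 0.07 (adjusted p = 0.562, edgeR). At the other end of the type II cluster, Gm35853, which overlaps exons of Krt80, had a log2 fold change of 0.58 ± 0.40 (SE) and did not pass (adjusted p = 0.238, edgeR).

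Krt20, a type I keratin known from intestinal epithelium and urothelium, was almost undetected in controls. It held 66, 94, 69 and 96 counts in knockdown replicates 1 to 4, against 1, 1, 0 and 0 counts in control replicates 1 to 4. The groups did not overlap, and the knockdown samples held 2.08 to 2.73 CPM. With 325 against 2 counts in all, the ratio per library size was 101 with a 95% counting interval of 27.8 to 839, an exact interval for counting error only. The adjusted p from edgeR was 1.38e-06 with a fitted log2 fold change of 6.41 ± 0.45 (SE), where the authors' deposited table gives 4.93, a fold of 30.4. Krt20 lies on chromosome 11 at 99428403 to 99438150 on the minus strand, beside Krt23, and no exon of another gene overlaps it.

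Krt5, the type II keratin of basal cells in stratified epithelia, was counted in knockdown samples alone. It held 51, 58, 36 and 52 counts (1.24 to 1.69 CPM) in knockdown replicates 1 to 4, against 0 counts in each control. Against a floor of 3 counts over the control group it was at least 40.9-fold higher in the knockdown samples (adjusted p = 1.65e-05, edgeR). The exact 95% lower limit of the ratio, which also covers the counting error of the 197 knockdown counts, was 32.9. In the authors' deposited table Krt5 stands at 4.75 on the log2 scale, a fold of 26.9 and so below both bounds. For Krt17, with 6 against 1 counts, that table gives a fold of 1.44 where the ratio per library size was 3.74. Its folds at low counts are therefore not the same measure as these bounds. The usual type I partners of Krt5 did not accompany it: Krt14 held 1 count in all knockdown samples and 0 in the controls, and Krt15 held 0 in all 8 samples. The other basal and wound-response keratins were close to 0 as well, with 6 against 1 counts for Krt17, 4 against 0 for Krt16, and 0 against 0 for Krt6a and Krt6b, whose sequences are close to that of Krt5. Krt5 lies on chromosome 15 at 101707070 to 101712898 on the minus strand, and a microRNA gene on the other strand (Gm44323) overlaps its exons.

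The promoter windows of Krt20 (chr11:99438104-99438403, minus strand, GRCm38.p6) and Krt5 (chr15:101712856-101713155, minus strand) are shown because these keratins were counted in each knockdown sample and almost not at all in controls. Capitals mark the same 5 motifs.
Krt20: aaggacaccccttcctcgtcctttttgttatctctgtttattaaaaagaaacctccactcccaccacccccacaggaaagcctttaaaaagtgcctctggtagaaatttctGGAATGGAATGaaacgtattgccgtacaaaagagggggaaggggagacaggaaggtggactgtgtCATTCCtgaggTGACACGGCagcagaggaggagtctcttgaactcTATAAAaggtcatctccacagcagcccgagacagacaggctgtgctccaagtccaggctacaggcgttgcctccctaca
Krt5: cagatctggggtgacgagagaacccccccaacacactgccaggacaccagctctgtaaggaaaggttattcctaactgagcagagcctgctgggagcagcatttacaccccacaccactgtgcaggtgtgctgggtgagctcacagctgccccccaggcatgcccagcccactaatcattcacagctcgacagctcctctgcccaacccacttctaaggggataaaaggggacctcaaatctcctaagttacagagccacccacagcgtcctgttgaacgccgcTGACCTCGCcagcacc
The Krt20 window held 3 GGAATG matches, which begin 139, 134 and 74 bases before the start, the last on the opposite strand. It also held 1 TGACNNNGC match and 1 TATAAA match, which begin 63 and 29 bases before the start. The Krt5 window held only a TGACNNNGC match, 34 bases after the start and so within the transcribed part. GGAATG occurred in 3 of the 37 keratin windows and 14.7% of all windows, TGACNNNGC in 9 of 37 and 12.4%, GGGCGG in 2 of 37 and 35.7%, and TGANTCA in 2 of 37 and 7.81%. Windows were available for 36 of the 54 keratins and 7 of the 10 tested, and among those 7 GGGCGG was found in the Krt7 window alone.

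The bile duct keratins gave weaker results. Krt7 held 0.946, 0.320, 0.962 and 0.641 CPM in knockdown replicates 1 to 4, against 0.288, 0.327, 0.360 and 0.411 CPM in control replicates 1 to 4. Knockdown replicates 1, 3 and 4 lay above all controls and knockdown replicate 2 lay within their range. The log2 fold change was 1.03 ± 0.39 (SE) with an adjusted p of 0.042 from edgeR, and the authors' deposited table gives an adjusted p of 0.0769. The call was lost when any sample other than knockdown replicate 2 was left out, with the replicate number or the code letter in the fit, with the samples coded C alone, without a filter and with DESeq2 (adjusted p 0.00377 to 0.111 over all alternatives). Krt19 held 1.17, 0.872, 1.27 and 0.666 CPM in the knockdown samples, against 0.288, 0.467, 1.18 and 0.0913 CPM in the controls. Control replicate 3 lay among the knockdown samples. The difference of 0.98 ± 0.53 (log2, SE) did not pass (adjusted p = 0.137, edgeR), but was 1.79 and passed without control replicate 3 (adjusted p = 0.00999, edgeR). Krt7 shares exon bases with Gm671 on the other strand.

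Krt23, a type I keratin known to be induced in stressed mouse liver, was the third most abundant keratin per kilobase in both groups. It held 10.8, 11.3, 10.7 and 10.02 CPM in knockdown replicates 1 to 4, against 9.84, 7.66, 4.58 and 15.2 CPM in control replicates 1 to 4. The knockdown samples were close to each other and lay inside the range of the controls, and control replicate 4 was the highest of the 8 samples. The log2 fold change was 0.19 ± 0.27 (SE; adjusted p = 0.568, edgeR). It was 0.53 and passed without control replicate 4 (adjusted p = 0.0474, edgeR), and it was -0.03 without control replicate 3.

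The remaining keratins tested were low and did not pass. Krt10, the suprabasal epidermal partner of Krt1, held 0.641 to 0.996 CPM in the knockdown samples and 0.514 to 0.720 CPM in the controls (log2 fold change 0.31 ± 0.26, SE; adjusted p = 0.325, edgeR), while Krt1 itself was at 0 in all 8 samples. Krt80, a type II keratin, held 0.790 to 1.48 CPM in the knockdown samples and 0.593 to 1.18 CPM in the controls (0.23 ± 0.31; adjusted p = 0.556, edgeR), and the difference was -0.02 without knockdown replicate 1. Krt222, a keratin-like gene at the edge of the type I cluster, held 0.914 to 1.31 CPM in the knockdown samples and 0.654 to 1.37 CPM in the controls (0.23 ± 0.28; adjusted p = 0.501, edgeR). Each of the 3 passed under total-count scaling, at 0.81 to 0.88 for Krt80 and Krt10 and 0.79 for Krt222. The exons of Krt10 and Krt80 overlap antisense genes.

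**Figure D3:**
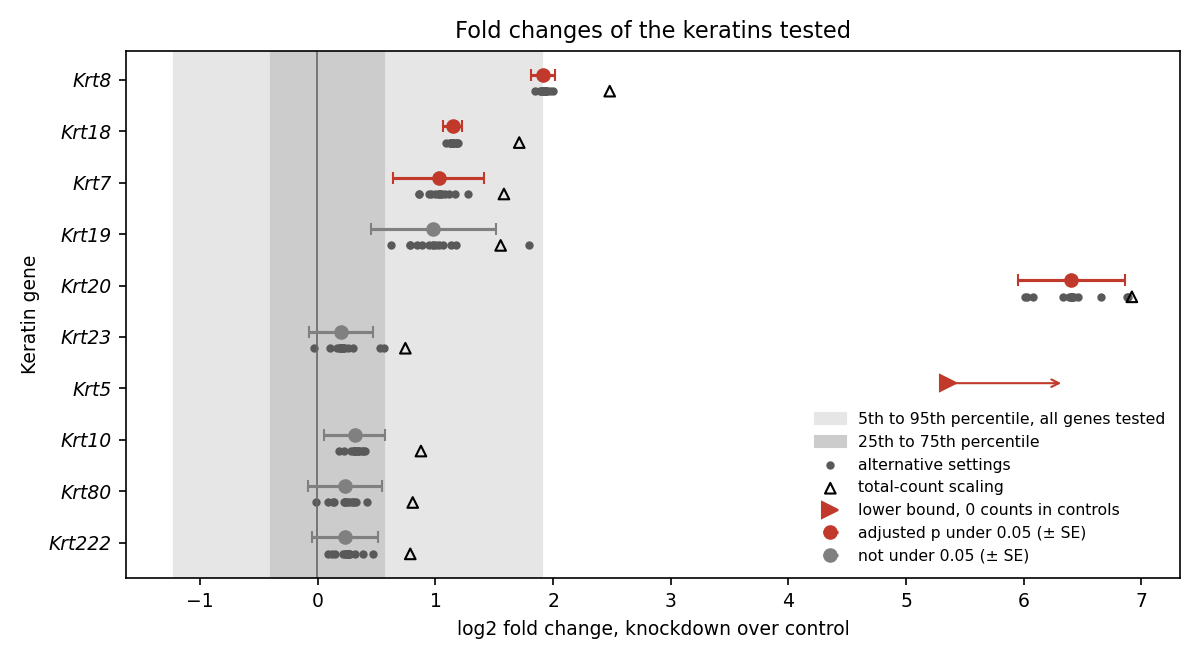
Log2 fold change of knockdown over control (± SE) for the 10 keratins tested, in red where the adjusted p was under 0.05, with small points for the alternatives, triangles for total-count scaling, and grey bands for the 25th to 75th and 5th to 95th percentiles of all genes tested. Krt20 and Krt5 (shown as a lower bound of 5.35) lie beyond the 95th percentile of 1.905, Krt8 at 1.92 lies at its edge, and Krt18 at 1.14 lies inside the outer band.

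Too few counts to be tested were found for 9 keratins, which together held 45 counts in the knockdown samples and 10 in the controls. Krt79 had the most, with 5, 8, 2 and 7 counts in knockdown replicates 1 to 4 against 1, 1, 3 and 2 counts in control replicates 1 to 4. Krt83, a hair keratin, held 6 against 1 counts, Krt28 3 against 0, Krt78 2 against 0, Krt4 1 against 0 and Krt42 0 against 1. Per library size, 8 of these 9 had more counts in the knockdown samples, beside 56.4% of all 12014 genes that had counts but were not tested. In a fit without the filter none of the 9 passed (edgeR, adjusted p 0.243 to 0.505, and none at an unadjusted p under 0.05; smallest unadjusted p = 0.117). Over all 48 members outside the simple group, 7 to 10 keratins were detected per knockdown sample and 4 to 6 per control, where over all genes 21278 to 22491 were detected per knockdown sample and 20127 to 20717 per control. The 35 keratins without a count included Krt1, Krt2, Krt6a, Krt6b, Krt9, Krt13, Krt15 and most hair keratins, and 3 counts in a library, the limit that a count of 0 allows, correspond to 0.0769 to 0.154 CPM.

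The pattern along the chromosomes was sparse. The type I cluster on chromosome 11 (99232761 to 100269871) held 27 members, of which 5 were tested, and the type II cluster on chromosome 15 (101347444 to 102032027) held 26 type II members together with Krt18, of which 5 were tested. Krt20 and Krt23 are neighbours on chromosome 11, yet Krt20 rose and Krt23 did not pass. Krt5 lies between Krt6a and Krt71, both at 0.

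**Figure D4:**
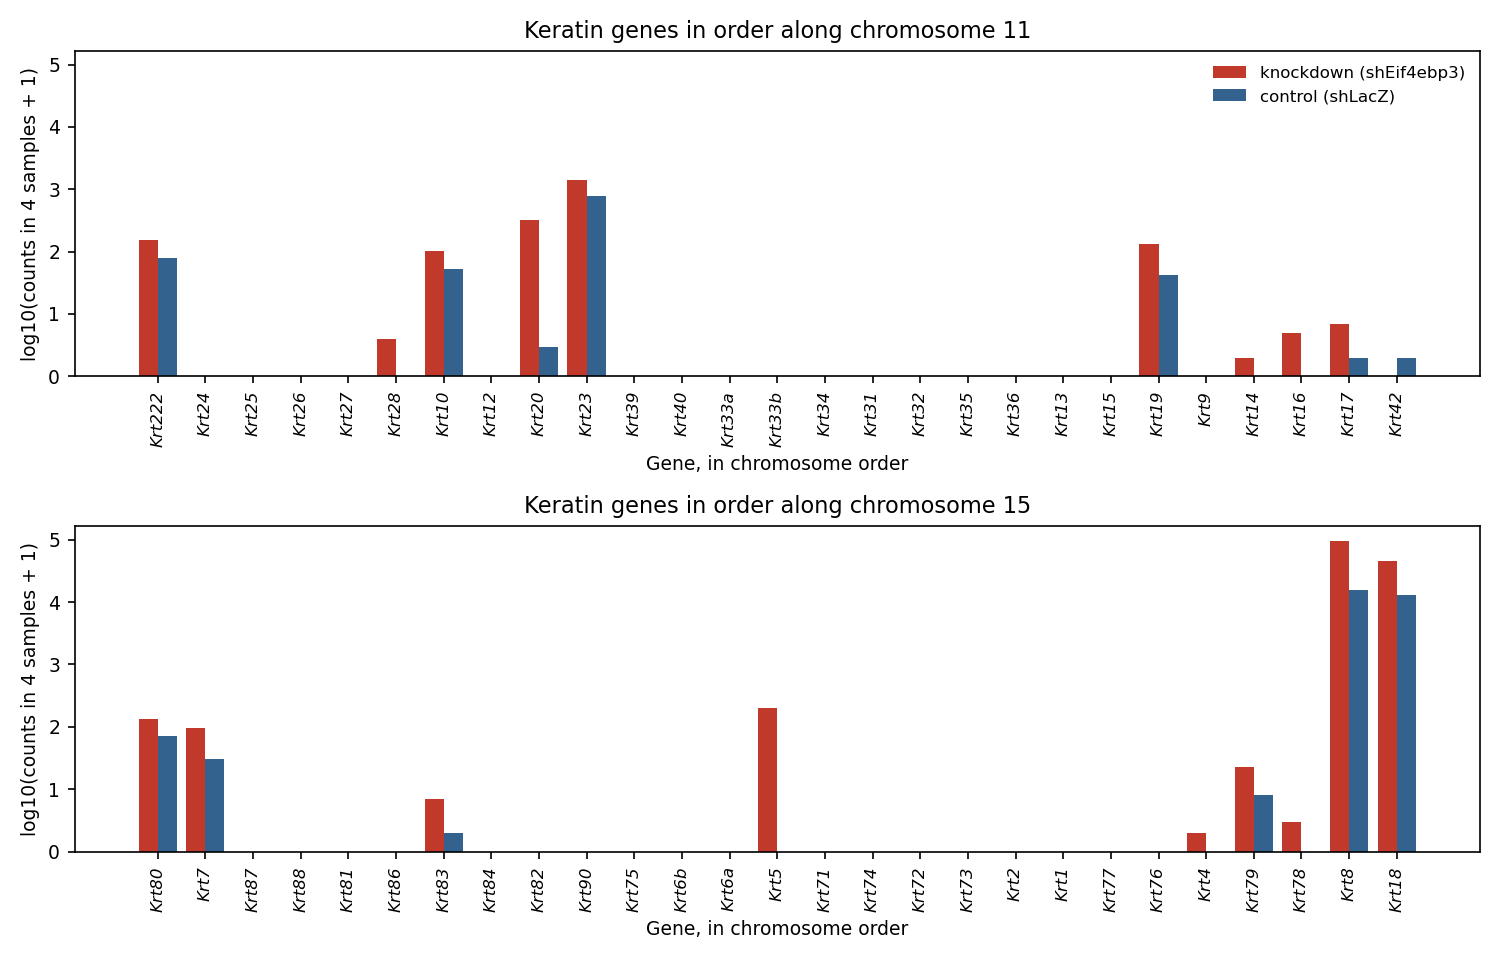
Counts of all 54 keratins in chromosome order, as log10 of the counts summed over the 4 samples of a group plus 1, knockdown left of control for each gene. Krt8 and Krt18 stand at the right end of the chromosome 15 panel, Krt5 has a knockdown bar alone (197 against 0 counts), and 35 positions are empty in both groups.

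Simple epithelial keratins made up nearly the whole keratin pool in both groups. All members together came to 607 ± 29.5 CPM per kilobase in knockdown and 210 ± 20.2 in control samples (SD, n = 4 each), a ratio of 2.89. The simple group held 99.7% ± 0.0175 of that sum in knockdown and 99.6% ± 0.0418 in control samples, and Krt8 and Krt18 alone held 98.2% ± 0.0408 and 96.5% ± 1.13 (knockdown and control, SD, n = 4 each). The 48 others together held 1.904 ± 0.185 CPM per kilobase in knockdown and 0.947 ± 0.161 in control samples (SD, n = 4 each), a ratio of 2.01. Without Krt5 the sums were 1.24 ± 0.118 in knockdown and 0.947 ± 0.161 in control samples (SD, n = 4 each), a ratio of 1.31. Without normalisation factors or division by length, keratin counts were 0.119 to 0.141% of all counts in the knockdown samples and 0.0240 to 0.0343% in the controls. The sums per kilobase above use those factors, so the size of the rise depends on the scaling between samples.

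Genes of other filaments, and genes that anchor keratin filaments, moved in part. Among 16 other intermediate filament genes, 7 were tested and 7 rose, beside 29.5% of all genes tested. Lmna, which encodes lamins A and C of the nuclear envelope, rose by 1.32 ± 0.08 and Lmnb1, another lamin, by 1.47 ± 0.23 (log2, SE). The mesenchymal filament gene Vim averaged 119 CPM in knockdown and 31.8 CPM in control samples, and Synm rose by 1.21 ± 0.22. Of 22 desmosome and plakin genes, which anchor keratin filaments to cell junctions, 16 were tested, 7 rose and 1 fell. Of those that rose, Pkp1 passed the filter only through the knockdown samples. Dsp, the desmoplakin that binds keratin at the desmosome, held 120, 98.6, 94.2 and 112 CPM in the knockdown samples, against 51.6, 56.6, 60.8 and 72.8 CPM in the controls, without overlap. The plakin Ppl rose by 2.29 ± 0.10 and Evpl by 1.84 ± 0.33 (log2, SE). Dst fell by 0.51 ± 0.11 (log2, SE), but was at 0.07 under total-count scaling. Plec, the plakin linked to Krt8 and Krt18 in many epithelia, averaged 192 CPM in knockdown and 175 CPM in control samples and did not pass (adjusted p = 0.152, edgeR). Under total-count scaling 14 of the 16 were higher and 0 lower, and 2 were lower without knockdown replicate 1, control replicate 1 or control replicate 3.

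Of 15 genes linked to Mallory-Denk bodies, the aggregates of Krt8 and Krt18 in injured hepatocytes, 4 rose and 5 fell, a share near that of all genes. The ubiquitin-like modifier gene Ubd averaged 52.6 CPM in knockdown and 1.70 CPM in control samples, the crosslinking enzyme gene Tgm2 averaged 611 and 164 CPM (knockdown and control), and Ywhaz rose by 0.45 ± 0.06 (log2, SE). The aggregate component Sqstm1 averaged 572 CPM in knockdown and 626 CPM in control samples and did not pass (adjusted p = 0.255, edgeR). Fech fell by 0.35 ± 0.07 (log2, SE) but was higher, at 0.22, under total-count scaling, where 10 of the 15 were higher and 0 lower. The number lower was 3 without knockdown replicate 4 or any 1 of control replicates 1 to 3, and 6 without control replicate 4.

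Genes of stratified epithelium were few. Their counts of calls stand beside 29.5% higher and 27.8% lower over all genes tested. Of 25 cornified envelope genes, 12 were at 0 in all samples, 5 were tested and 3 rose, of which Sprr1a and Ivl passed the filter only through the knockdown samples. Sprr1a held 23.3 to 37.6 CPM in the knockdown samples and 0 to 0.365 CPM in the controls. Ivl, the gene of involucrin, held 53, 53, 52 and 42 counts in the knockdown samples against 0, 0, 0 and 1 in the controls, a ratio of 125 with a 95% counting interval of 22.1 to 4944. The crosslinking enzyme gene Tgm1 rose by 1.34 ± 0.17 (log2, SE). Of 14 keratinocyte markers, 6 were at 0 in every sample, among them Trp63, the regulator of basal cells, and the desmosomal cadherins Dsg3 and Dsc3, while 4 of the 5 tested rose. Ly6d averaged 177 CPM in knockdown and 4.65 CPM in control samples, the largest part of the list's summed 283 to 343 CPM in knockdown samples, against 129 to 153 CPM in controls. The list of 21 epithelial transcription factors also holds the splicing regulators Esrp1 and Esrp2. Of these 21 genes, 9 were tested, 4 rose and 2 fell (7 and 1 under total-count scaling). Only 1 was lower without knockdown replicate 1 or 2 or without control replicate 2, 3 or 4. Elf3, an epithelial factor, averaged 4.18 CPM in knockdown and 0.691 CPM in control samples, Grhl1 rose by 1.89 ± 0.27 and Ehf by 1.65 ± 0.31, and Esrp2, a splicing regulator of epithelial cells, fell by 0.92 ± 0.09 (log2, SE).

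Markers of other cells moved in the same samples, and in RNA of whole liver fewer cells of a type and less RNA per cell cannot be told apart. Over all genes tested 29.5% were higher and 27.8% lower. Under total-count scaling 9823 of 15375 were higher and 1189 lower. Of 21 cholangiocyte markers without keratins, 17 were tested, 11 rose (Cldn4 and Cldn7 passed the filter only through the knockdown samples) and 2 fell, against 15 higher and 0 lower under total-count scaling. The number lower was 1 without knockdown replicate 1 or 2 or without control replicate 2, 3 or 4. Their summed level was 371 to 462 CPM in knockdown samples and 292 to 340 CPM in controls. Cd24a rose by 2.84 ± 0.21, St14 by 2.43 ± 0.23, Cldn7 by 2.53 ± 0.29 and Prom1 by 1.97 ± 0.24 (log2, SE), while Sox9 averaged 11.4 CPM in knockdown and 9.83 CPM in control samples and did not pass (adjusted p = 0.378, edgeR). Of 15 enterocyte and goblet markers, 5 were tested, 2 rose (Muc13 and Vil1, which both passed the filter only through the knockdown samples) and 2 fell (Lgals4 and Tff3), and Cdx1 and Cdx2 were at 0. The summed level was 98.9 to 108 CPM in knockdown samples and 127 to 151 CPM in controls. Most of it was Fabp2 (59.3 CPM on average in knockdown and 64.8 CPM in control samples) and Lgals4 (30.4 and 60.8 CPM). Of 12 mesothelial markers 4 were tested, 1 rose (Lrrn4, which passed the filter only through the knockdown samples) and 2 fell (C3 and Slc39a8, both also made by hepatocytes). Their list had a sum of 5623 to 6690 CPM in knockdown samples and 7837 to 11503 CPM in controls. Nearly all of that sum was C3, at 6042 CPM on average in knockdown and 9407 CPM in control samples, so it mainly describes C3. Under total-count scaling neither C3 nor Slc39a8 was called lower, with C3 at -0.07 (adjusted p = 0.608, edgeR) and Slc39a8 at 0.02. Of 16 pancreatic acinar markers 8 were at 0, 2 were tested and 1 (Cela2a) fell, and the sum was 6.20 to 8.58 CPM in knockdown samples and 6.24 to 7.71 CPM in controls. Among acinar markers not tested, Cela3b held 27 counts in the knockdown samples against 1 in the controls, and Amy2b 0 against 2. Hepatocyte markers fell in 15 and rose in 1 (Hp) of 19 tested, against 12 lower and 3 higher under total-count scaling. Hp lost its call when any 1 sample other than knockdown replicate 1 was left out (adjusted p = 0.0381 with all samples, edgeR). Macrophage markers rose in 14 of 15 (sum 1101 to 1296 CPM in knockdown samples and 435 to 575 CPM in controls), and stellate and myofibroblast markers rose in 12 of 18, with 0 lower, or 2 lower without control replicate 4 (sum 655 to 1116 CPM in knockdown samples and 276 to 340 CPM in controls). The part of these cells in the keratin results was not tested.

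**Figure D5:**
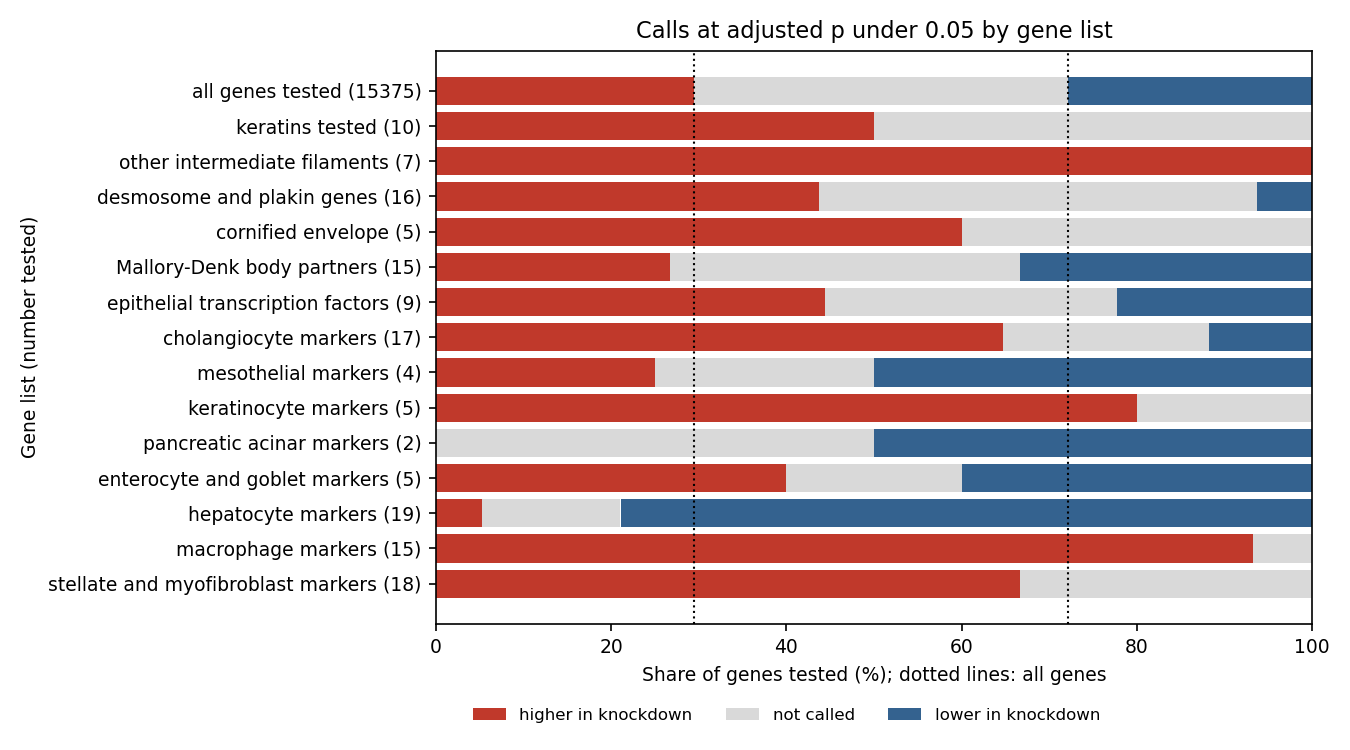
Share of the genes tested in each list that were called higher (red), not called (grey) or lower (blue) in knockdown samples at an adjusted p under 0.05, with the number tested beside each list and dotted lines at the shares of all genes (29.5% higher and 27.8% lower). The 10 keratins tested have 5 higher and none lower, and the hepatocyte markers have 15 of 19 lower.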

How the data were processed

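Ribosomal RNA-depleted liver RNA was sequenced, per the labels' protocols. The tools named per the submitters' processing notes are Bowtie2 2.2.9, fastp 0.19.5, SAMtools 1.9 and GATK 3.8, with the build mm10. For the counting program, annotation and strandedness the sources used here give nothing. The authors deposited estimated counts per gene, which were rounded because 10.9% of the values were fractional. Of 56181 entries, 645 assembled loci without a gene identifier (0.676 to 1.08% of a sample's counts) were left out. The authors' deposited comparison lists a fold per gene, its log2 value, p-value and adjusted p-value, made with DESeq2 per its name, and a length in bases.

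In R 4.3.3, edgeR 4.0.16 (filterByExpr, TMM, glmQLFit, glmQLFTest) compared knockdown with control across 15375 genes, with Benjamini-Hochberg adjustment. Alternatives were DESeq2 1.42.0, RLE factors, total-count scaling, other filters, the replicate number as a block, the code letter (C or D) as a covariate, samples coded C alone, and leaving out each sample. The code was tested on simulated data. CPM use TMM-scaled library sizes. The labels call the samples replicates without naming separate animals, so p-values reflect only how these samples vary, which may be technical. No 2 replicates agreed within counting noise (chi-square over its degrees of freedom at least 9.84). Positions are from GENCODE release M21, where all 54 identifiers were found, and promoters from RefSeq (GRCm38.p6).

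The members and gene lists were chosen with earlier results of these data known. Named genes are the keratins tested and of each list, up to 4 of the called members, by smallest p. Eif4b, Eif1, Smarce1, the overlapping genes, Hp, Cldn4, Pkp1 and list members named as untested, not called or at 0 were chosen after their values were seen. Intervals and floors cover counting error only.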

Additional observations from a re-analysis of the deposited data

Results flagged for a closer look

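Of 128 groups of 4 values, 6 held a sample set apart from the other 3 (Dixon's criterion), where chance gives about 5% of groups. Among the keratins this was Krt80 in knockdown replicate 1, at 1.48 CPM against 0.790 to 0.897 CPM in the other knockdown samples. Ivl had its only control count in control replicate 4 (0.0456 CPM). Among the knockdown samples alone, C1qc, a macrophage complement gene, was lowest in replicate 4 (160 CPM), and Cela2a was highest in that sample (0.256 CPM). Serpina1a, a secreted hepatocyte protease inhibitor, was set apart in knockdown replicate 3 (2783 CPM) and in control replicate 4 (5162 CPM).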

How the results depend on the processing

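Krt8, Krt18 and Krt20 kept their direction and their call under all 16 alternatives, and Krt5 under the 15 that tested it, with log2 fold changes of 1.84 to 2.48 for Krt8, 1.09 to 1.71 for Krt18 and 6.01 to 6.92 for Krt20. Krt7 kept its direction but lost its call under 12 of 15. Total-count scaling gave 9823 higher and 1189 lower genes (89.2% of calls higher, against 51.5%), 10 higher keratins and 4 higher keratins outside the simple group. A mean of at least 1 CPM left 3 higher keratins and 0 outside the simple group, because fewer keratins were tested. No alternative called a keratin lower. Leaving out 1 sample at a time gave 4 to 5 higher keratins, -0.033 to 0.53 for Krt23 and -0.018 to 0.41 for Krt80. Under total-count scaling Dst (0.072), Fech (0.22) and Slc39a8 (0.016) changed sign. Without division by length the simple epithelial share was 99.56% in knockdown and 99.28% in control samples. Correlations of deviations were -0.13, -0.04, 0.06 and 0.15 for same-numbered replicates 1 to 4, and -0.27 to 0.17 for samples of different number. They cannot decide whether same-numbered samples were paired, and the labels do not say what the numbers stand for. With the replicate block 4414 genes were higher, 4067 lower and 4 keratins higher. With so few counts in most keratins outside the simple group, depth limits what could be detected there.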

Other observations

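Low-count members of the filament and intestinal lists are given here by value; they were chosen after their values were seen and most were not tested. Counts in controls were almost absent for some. The neurofilament gene Nefm held 13, 10, 8 and 15 counts in knockdown replicates 1 to 4, against 0 in each control. The intestinal cadherin gene Cdh17 held 51 counts in the knockdown samples against 2 in the controls, and Guca2a, which encodes the intestinal peptide guanylin, 37 against 1. Muc13, a mucin of intestinal epithelium, held 173, 257, 116 and 220 counts in the knockdown samples, against 0, 1, 1 and 2 in the controls. Vil1, the actin-bundling villin of the brush border, held 88 against 3 counts, a ratio of 18.3 with a 95% counting interval of 6.05 to 90.3. With fewer counts, Nefl held 8 against 0, Alpi 8 against 0, Agr2 6 against 0, Lypd8 9 against 1 and Bfsp1 11 against 1. Of all 12014 genes with counts that were not tested, 56.4% had more per library size in the knockdown samples.

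Some other members of the same lists did not show such near absence in controls. The glial filament gene Gfap held 34 counts in the knockdown samples and 28 in the controls (0.252 and 0.336 CPM on average, knockdown and control), Nefh 30 and 10, Sync 24 and 9, and Fcgbp 12 and 6, each with overlapping CPM. Fabp2, the intestinal fatty acid binding protein gene, averaged 59.3 CPM in knockdown and 64.8 CPM in control samples and did not pass (adjusted p = 0.165, edgeR). The intestinal lectin gene Lgals4 averaged 30.4 CPM in knockdown and 60.8 CPM in control samples, and Tff3 averaged 6.88 CPM in knockdown and 13.3 CPM in control samples.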
